A study of Homo sapiens with 4 samples.

Results

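The genes described here are the subunits, activators, inhibitor and dedicated assembly chaperones of the human proteasome, chosen by name as the rows called PSMA to PSMG followed by a number. The rule finds 48 genes among the 58174 of the table and leaves out pseudogenes and antisense genes. All 48 are protein-coding in GENCODE release 29. Messenger RNA was sequenced from the established liver cancer cell lines LM3, labelled hepatocellular carcinoma, and RBE, labelled intrahepatic cholangiocarcinoma. By lipofection, each line received either si-FENDRR, an siRNA that targets FENDRR, itself a long noncoding RNA, or the negative control si-NC, and RNA was taken 48 h later. The 4 groups were LM3 with si-FENDRR, LM3 with si-NC, RBE with si-FENDRR and RBE with si-NC, each with 1 library, so a difference within a line has no replicate check. The question behind the design is what loss of FENDRR does to gene expression in liver cancer cells.

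The proteasome degrades proteins tagged with ubiquitin. Its 20S core is a barrel of alpha rings, which form the gate, around beta rings, which hold the proteolytic sites, and the 19S cap binds ubiquitin chains, removes them and unfolds the substrate with a ring of ATPases. In cells exposed to interferon the active beta subunits can be replaced by immunoproteasome counterparts, which changes the peptides available to MHC class I. Assembly chaperones build both parts, and other activators can bind the core in place of the 19S cap. Healthy hepatocytes and bile duct cells mostly carry the constitutive form.

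The deposited values are FPKM, fragment counts scaled to gene length and sequencing depth, so levels of different genes can be set side by side per length. Between 13437 and 13682 genes reached an FPKM of 1 in a library, and the FPKM of a library summed to between 484157 and 508418. FENDRR was listed at 0 in all 4 libraries, so the knockdown was not checked and the libraries are compared by label. Markers matched the labelled cell types in part. The hepatocyte genes ALB and AFP were at 8.25 to 35.7 FPKM in LM3 and at most 0.270 in RBE, but APOA1 and APOB were below 1 in LM3, SERPINA1 was at 56.8 to 82.5 FPKM in RBE, and 4 of 8 hepatocyte genes reached 1 FPKM in each line. The bile duct keratin gene KRT7 was at 391 to 429 FPKM in RBE and 6.02 to 7.21 in LM3, CFTR was near 0 in both lines, and 4 of 6 bile duct genes in LM3 and 5 of 6 in RBE reached 1 FPKM. SPP1, another of these 6 genes, was higher in LM3, at 909 to 1118 FPKM, against 504 to 515 in RBE. The summed level of the 6 bile duct genes was 1103 to 1288 FPKM in LM3 and 1418 to 1477 in RBE. Of 4 fibroblast genes, LUM in LM3 (24.9 to 28.4 FPKM) and COL1A1 in RBE (2.45 to 2.94 FPKM) did so. The leukocyte genes PTPRC, CD3E, CD14 and HLA-DRA were at most 0.196 FPKM in every library. LYZ was at 12.5 to 12.7 FPKM in RBE and CD79A at 16.8 to 19.2 in LM3, and the summed level of the 6 leukocyte genes was 17.1 to 19.4 FPKM in LM3 and 12.8 to 13.0 in RBE. The part of these marker differences in the results between the lines was not tested.

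Proteasome genes were expressed in both lines at levels that spread widely between subunits of the same ring. In all, 46 of the 48 members had an FPKM of at least 1 in some library and entered the test across genes, and each of the 46 was also above 1 in every library. The other 2 are PSMA8, the alpha subunit known from testis, which was listed at 0 in all libraries, and PSMB11, the thymus-specific beta subunit, which was at most 0.0204 FPKM. The highest member was PSMB4, a beta subunit without proteolytic activity, at 319.9 (si-FENDRR) and 302 (si-NC) FPKM in LM3, against 356 (si-FENDRR) and 331 (si-NC) FPKM in RBE. Among the alpha subunits PSMA7 was the highest in each library, at 145 (si-FENDRR) and 159 (si-NC) FPKM in LM3, against 216 (si-FENDRR) and 188 (si-NC) FPKM in RBE. Levels of the 7 tested alpha subunits in the si-NC libraries ran from 34.2 to 159 FPKM in LM3 and from 26.7 to 188 FPKM in RBE. Of the 19S genes, the ubiquitin receptor PSMD4 was the highest in all 4 libraries, and the lid subunit PSMD12 the lowest in 3 of 4, the exception being LM3 with si-FENDRR, where PSMC1 was lowest.

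**Figure D1:**
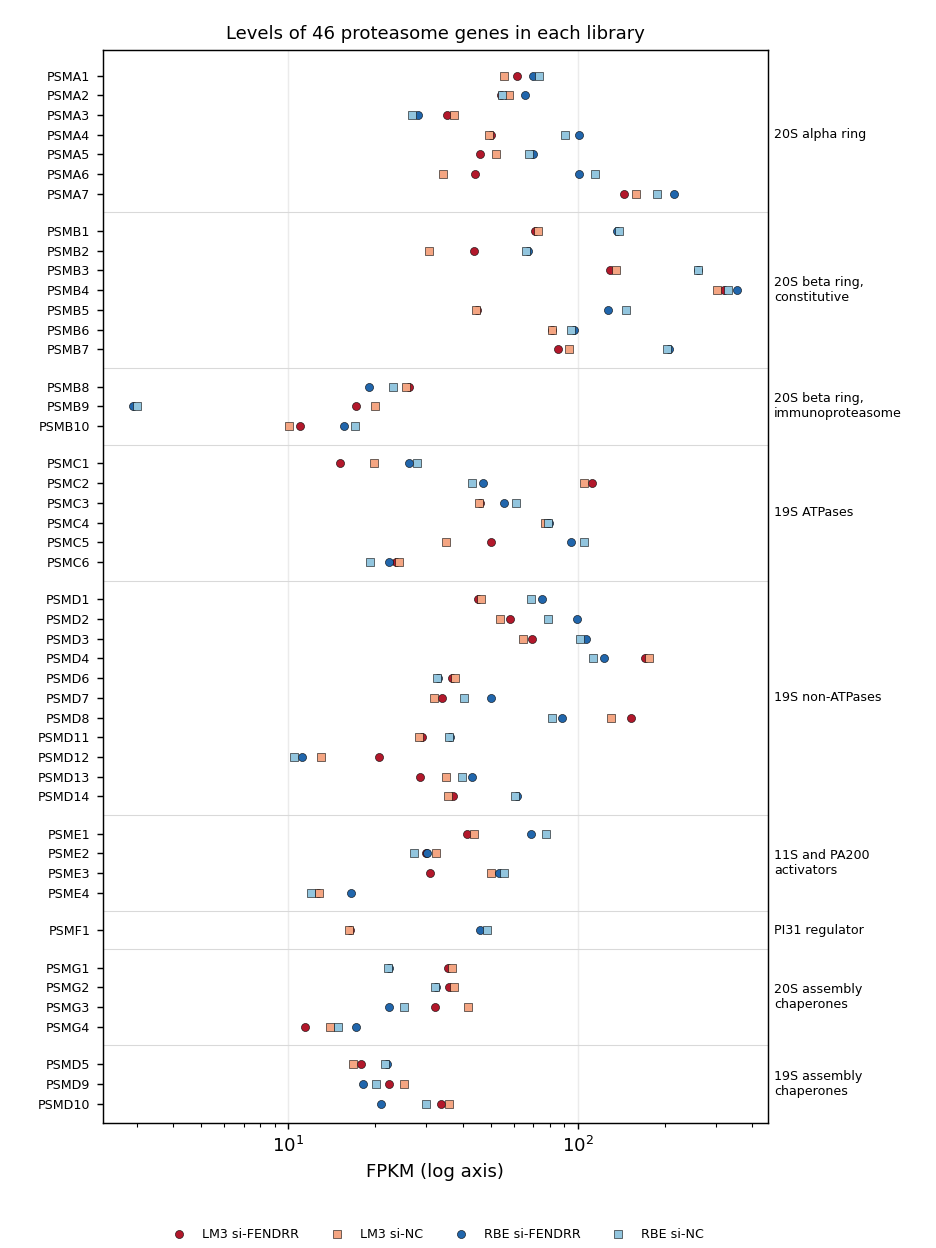
FPKM on a log axis (x) of the 46 tested members (rows, by subunit group), 1 point per library, with circles for si-FENDRR, squares for si-NC, red shades for LM3 and blue shades for RBE. The 2 libraries of a line mostly lie together, and PSMB9 shows the widest gap between the lines, at 17.1 and 19.9 FPKM in LM3 and 2.91 and 2.997 FPKM in RBE.

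The larger differences lay between the lines. As RNA was taken in bulk from each line, fewer expressing cells and less RNA per cell cannot be told apart. Over both transfections, 7 members were higher and 18 lower in LM3 than in RBE, and 21 did not pass an adjusted p of 0.05 by limma, whose line term has 2 libraries per line that differ in transfection and 1 residual degree of freedom. Members were thus called higher in LM3 in 15.2% of cases, against 32.3% of the 15930 genes tested, and called lower in LM3 in 39.1%, against 26.4% of all genes. The share called in either direction was 54.3%, against 58.7% of all genes. Of the called members, 2 were at least 2-fold higher and 5 at least 2-fold lower in LM3, as 17.5% and 13.1% of all genes were. Both LM3 libraries lay below both RBE libraries in 28 members (37.4% of all genes did so) and above them in 14 (44.3% of all genes). The median log2 difference of the members, LM3 minus RBE on the log2(FPKM + 1) scale used throughout, was -0.32, beside 0.09 over all genes tested. Of the 48 members, 8 share exon bases with another gene on their own strand and 19 with a gene on the other strand, so their values may include reads of these genes. The 4 members whose libraries overlapped between the lines were PSMA2, PSMC4, PSME2 and PSME4. Of the 25 called members, 12 were called under each of 12 alternative settings, a count made for the members only and not over all genes. These were PSMB9, PSMC2 and PSMG1 among the higher, and PSMA4, PSMB1, PSMB3, PSMB5, PSMB7, PSMD1, PSMD14, PSME1 and PSMF1 among the lower. With 1 library left out, the transfection term could not be kept, and 1 library of a line stood against 2 of the other and was assumed to vary like them. In these 3-library fits 4 members were called higher and 10 lower without RBE si-FENDRR, and 4 higher and 11 lower without RBE si-NC, beside 7 and 22 in the fit of all libraries without the transfection term. A call missed in such a fit combines the missing library with the changed design. The counts of these fits have no share of all genes beside them and describe the members only.

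**Figure D2:**
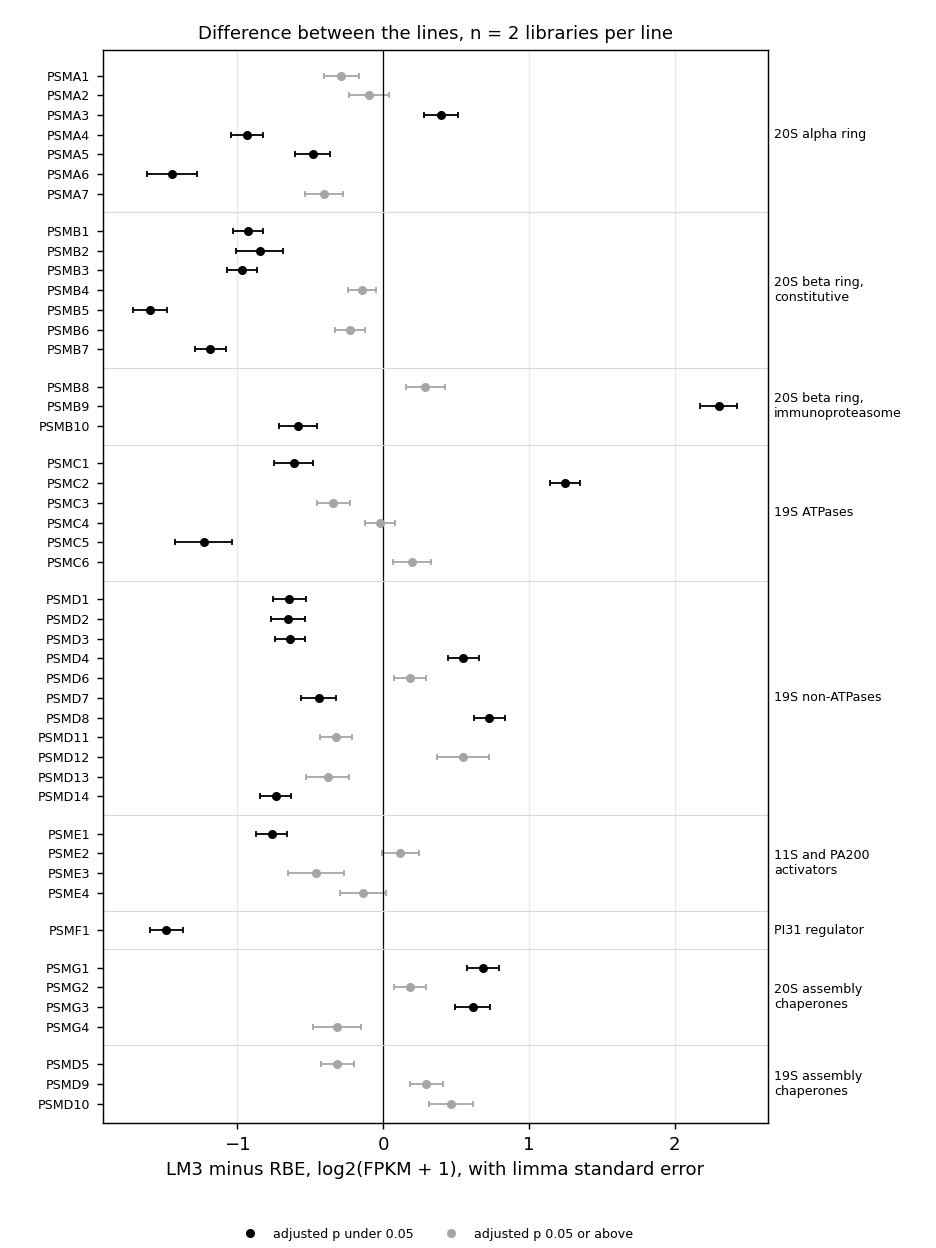
LM3 minus RBE log2 difference (x) of each tested member (rows, by subunit group), with points for the estimate of limma, bars for its standard error, and black for an adjusted p under 0.05. All 7 constitutive beta subunits lie to the left of 0, with PSMB5 at -1.60, while PSMB9 at 2.30 and PSMC2 at 1.25 lie farthest to the right.

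The constitutive beta ring held 5 genes called lower in LM3 (71.4%, beside 26.4% of all genes) and 0 called higher (beside 32.3%). In all 7 subunits the mean FPKM was lower in LM3 and the log2 difference negative, as it was in 46.1% of all genes. Their median log2 difference was -0.93. The largest was in PSMB5 (ENSG00000100804, chromosome 14, 23016543 to 23035230, minus strand of hg38), the chymotrypsin-like site of the constitutive core. PSMB5 was at 44.8 (si-FENDRR) and 44.5 (si-NC) FPKM in LM3, against 128 (si-FENDRR) and 147 (si-NC) FPKM in RBE (log2 difference -1.60 ± 0.12 SE, n = 2 libraries per line, adjusted p = 0.00222 by limma). PSMB7, the trypsin-like site, was at 85.8 (si-FENDRR) and 93.4 (si-NC) FPKM in LM3, against 206 (si-FENDRR) and 203 (si-NC) FPKM in RBE (log2 difference -1.18 ± 0.11 SE, n = 2 libraries per line, adjusted p = 0.00322 by limma). In both genes the libraries of a line lay close together and far from those of the other line. PSMB6, the caspase-like site, was the one active-site gene not called, at 81.5 (si-FENDRR) and 81.5 (si-NC) FPKM in LM3, against 97.1 (si-FENDRR) and 94.5 (si-NC) FPKM in RBE (log2 difference -0.23 ± 0.10 SE, n = 2 libraries per line, adjusted p = 0.128 by limma). Among the inactive beta subunits, PSMB3 was at 129.6 (si-FENDRR) and 136 (si-NC) FPKM in LM3, against 259 (si-FENDRR) and 261 (si-NC) FPKM in RBE (log2 difference -0.97 ± 0.10 SE, n = 2 libraries per line, adjusted p = 0.00422 by limma). PSMB1, another of them, was at 71.3 (si-FENDRR) and 72.9 (si-NC) FPKM in LM3, against 137 (si-FENDRR) and 139 (si-NC) FPKM in RBE (log2 difference -0.93 ± 0.10 SE, n = 2 libraries per line, adjusted p = 0.00475 by limma). In mean FPKM the LM3 level was 0.510 times that of RBE for PSMB3 and 0.522 times for PSMB1. PSMB2 was at 43.9 (si-FENDRR) and 30.6 (si-NC) FPKM in LM3, against 67.4 (si-FENDRR) and 66.02 (si-NC) FPKM in RBE (log2 difference -0.85 ± 0.16 SE, n = 2 libraries per line, adjusted p = 0.0165 by limma), with its LM3 libraries further apart than those of the other constitutive beta subunits. The call was missed in the 3-library fit without RBE si-FENDRR (-0.83) or RBE si-NC (-0.86), with adjusted p up to 0.154. PSMB4, the most abundant, did not pass (log2 difference -0.14 ± 0.10 SE, n = 2 libraries per line, adjusted p = 0.265 by limma).

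The alpha ring showed the same direction in 6 of 7 tested subunits (85.7%, beside 46.1% of all genes), with a median of -0.41. Of the 7, 3 were called lower in LM3 (42.9%, beside 26.4% of all genes) and 1 higher (14.3%, beside 32.3%). The share called in either direction was 57.1%, beside 58.7% of all genes. PSMA6 was at 44.1 (si-FENDRR) and 34.2 (si-NC) FPKM in LM3, against 101 (si-FENDRR) and 115 (si-NC) FPKM in RBE (log2 difference -1.45 ± 0.17 SE, n = 2 libraries per line, adjusted p = 0.00558 by limma), and shares exon bases on its strand with AL121594.3, which was at 1.30 to 3.38 FPKM. PSMA6 was not called in the 3-library fit without RBE si-NC (-1.35), with adjusted p up to 0.0528. PSMA4 was at 50.01 (si-FENDRR) and 49.2 (si-NC) FPKM in LM3, against 101 (si-FENDRR) and 90.6 (si-NC) FPKM in RBE (log2 difference -0.93 ± 0.11 SE, n = 2 libraries per line, adjusted p = 0.00541 by limma). PSMA5 was also called lower in LM3 (-0.48 ± 0.12 SE, adjusted p = 0.032). The call was missed in the 3-library fit without RBE si-FENDRR (-0.46) or RBE si-NC (-0.51), and with library totals or no filter on low values, with adjusted p up to 0.105. PSMA3 was the exception in the core, at 35.4 (si-FENDRR) and 37.3 (si-NC) FPKM in LM3, against 28.1 (si-FENDRR) and 26.7 (si-NC) FPKM in RBE (log2 difference 0.40 ± 0.12 SE, n = 2 libraries per line, adjusted p = 0.0477 by limma). PSMA3 was not called in the 3-library fit without LM3 si-FENDRR (0.43), LM3 si-NC (0.36), RBE si-FENDRR (0.43) or RBE si-NC (0.36), and with library totals, median of ratios, no filter on low values or no prior trend, with adjusted p up to 0.091. PSMA1, PSMA2 and PSMA7 did not pass, at -0.29, -0.09 and -0.41. Summed over the alpha ring and the constitutive beta ring, FPKM reached 1213 (si-FENDRR) and 1206 (si-NC) in LM3, against 1902 (si-FENDRR) and 1859 (si-NC) in RBE.

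The promoters of PSMB5 and PSMB3 are shown as examples of core genes called lower in LM3, and do not stand for the others. They are given here as the 150 bases before the most upstream start in RefSeq (GRCh38.p14), 5′ to 3′ on the strand of the gene. Capitals mark matches, on either strand, to the antioxidant response element core TGACNNNGC, to CCAAT, or to the interferon gamma-activated element TTCNNNGAA. The PSMB5 window is chr14:23035221-23035370, minus strand, and the PSMB3 window is chr17:38752591-38752740, plus strand.
PSMB5: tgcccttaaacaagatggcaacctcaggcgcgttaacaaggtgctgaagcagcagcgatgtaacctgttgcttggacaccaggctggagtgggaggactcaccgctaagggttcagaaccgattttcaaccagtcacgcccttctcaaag
PSMB3: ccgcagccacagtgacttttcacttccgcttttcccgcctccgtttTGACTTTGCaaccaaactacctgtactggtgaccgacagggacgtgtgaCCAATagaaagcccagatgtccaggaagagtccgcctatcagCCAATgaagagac
The PSMB3 window holds 1 antioxidant response element core, starting 104 bases before the start, and 2 CCAAT boxes, 55 and 13 bases before it, and the printed PSMB5 window holds no match.

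The 3 immunoproteasome genes gave 1 call in each direction and 1 gene that was not called. Each direction thus held 33.3% of them, beside 32.3% of all genes called higher and 26.4% called lower in LM3. PSMB9 (ENSG00000240065, chromosome 6, 32844136 to 32859585, plus strand), the immunoproteasome counterpart of PSMB6, was at 17.1 (si-FENDRR) and 19.9 (si-NC) FPKM in LM3, against 2.91 (si-FENDRR) and 2.997 (si-NC) FPKM in RBE (log2 difference 2.30 ± 0.13 SE, n = 2 libraries per line, adjusted p = 0.00143 by limma). This was the largest difference of any member in either direction, 6.28-fold in mean FPKM. PSMB8 (ENSG00000204264, chromosome 6, 32840717 to 32844703, minus strand), the chymotrypsin-like counterpart encoded next to it in the MHC region, was at 26.1 (si-FENDRR) and 25.5 (si-NC) FPKM in LM3, against 19.1 (si-FENDRR) and 22.9 (si-NC) FPKM in RBE, and the difference did not pass (log2 difference 0.29 ± 0.13 SE, n = 2 libraries per line, adjusted p = 0.133 by limma). Both LM3 libraries were above both RBE libraries. PSMB10, the trypsin-like counterpart on chromosome 16, was at 10.9 (si-FENDRR) and 10.1 (si-NC) FPKM in LM3, against 15.5 (si-FENDRR) and 16.96 (si-NC) FPKM in RBE, lower in LM3 (log2 difference -0.58 ± 0.13 SE, n = 2 libraries per line, adjusted p = 0.0242 by limma). The call was missed in the 3-library fit without LM3 si-NC (-0.53), RBE si-FENDRR (-0.64) or RBE si-NC (-0.52), with adjusted p up to 0.0781. PSMB8 and PSMB9 overlap head to head, and PSMB8-AS1, whose exons overlap those of both, was at 2.40 (si-FENDRR) and 0.938 (si-NC) FPKM in LM3, against 0.358 (si-FENDRR) and 0.682 (si-NC) FPKM in RBE. The strand setting of the libraries is not given, so reads of overlapping genes may have been split.

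Set against its constitutive counterpart, each immunoproteasome subunit made up a larger part of its pair in LM3. PSMB8 was 36.8% (si-FENDRR) and 36.4% (si-NC) of the summed FPKM of PSMB8 and PSMB5 in LM3, against 13.0% (si-FENDRR) and 13.5% (si-NC) in RBE. For PSMB9 with PSMB6 the shares were 17.4% (si-FENDRR) and 19.7% (si-NC) in LM3, against 2.91% (si-FENDRR) and 3.08% (si-NC) in RBE. For PSMB10 with PSMB7 they were 11.3% (si-FENDRR) and 9.73% (si-NC) in LM3, against 7.0% (si-FENDRR) and 7.69% (si-NC) in RBE. The shares of the lines did not overlap in any of the 3 pairs. Over all single genes tested, both LM3 libraries lay above both RBE libraries in 44.3% and below them in 37.4%. Ratios of other gene pairs were not examined. As a ratio of the immunoproteasome to the constitutive gene, LM3 was 3.79 times RBE for PSMB8 over PSMB5, 7.36 times for PSMB9 over PSMB6 and 1.48 times for PSMB10 over PSMB7. For the 3 ratios the exact two-sided permutation test over libraries gave p = 0.333, the smallest that 2 against 2 libraries allow. In mean FPKM the LM3 level was 1.23 times that of RBE for PSMB8 and 0.325 times for PSMB5, and 0.647 times for PSMB10 and 0.438 times for PSMB7, with the constitutive gene further from 1 in both pairs. In the third pair it was the immunoproteasome gene, at 6.28 times for PSMB9 and 0.851 times for PSMB6.

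**Figure D3:**
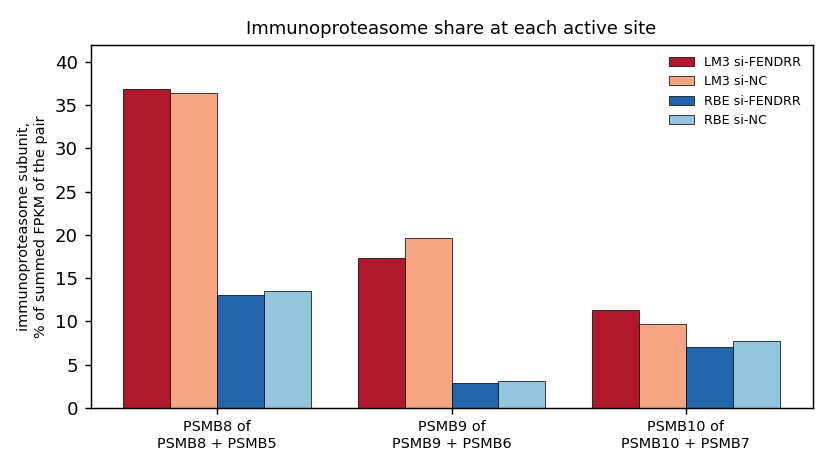
Share (y, percent) of the immunoproteasome subunit in the summed FPKM of each active-site pair, 1 bar per library, with no error bars because each group is 1 library. The LM3 bars are above the RBE bars in all 3 pairs, most of all for PSMB9, at 17.4% and 19.7% against 2.91% and 3.08%.

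The promoters of PSMB9 and PSMB8 are shown because these neighbours form the interferon-inducible pair of the MHC region. The PSMB9 window is chr6:32854042-32854191, plus strand, of which 44 bases lie in exons of longer PSMB9 transcripts, and the PSMB8 window is chr6:32844680-32844829, minus strand, with capitals as above.
PSMB9: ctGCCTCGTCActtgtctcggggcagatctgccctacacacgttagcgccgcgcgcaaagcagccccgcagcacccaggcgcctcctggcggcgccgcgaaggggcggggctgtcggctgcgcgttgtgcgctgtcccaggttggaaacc
PSMB8: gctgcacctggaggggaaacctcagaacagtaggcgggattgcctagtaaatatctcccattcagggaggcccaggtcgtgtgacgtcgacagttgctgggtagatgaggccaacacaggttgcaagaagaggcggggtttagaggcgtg
The PSMB9 window holds 1 antioxidant response element core on the opposite strand, beginning 148 bases before the start as printed, and the printed PSMB8 window holds no match. Over the 250 bases before a start, TTCNNNGAA was found for 1 of the 2 PSMB8 starts, CCAAT for PSMB9, and, of the 2 PSMB5 starts, CCAAT for 1 and TTCNNNGAA for the other. RefSeq windows were found for 42 members, with 51 starts. PSMA7, PSMB1, PSMB6, PSMB7, PSMD4 and PSMG3 were not matched. In the 250 bases before the start, the antioxidant response element core was in 13 of 51 windows (25.5%) and in 10.9% of all 35116 windows. CCAAT was in 37.3% against 32.0%, and TTCNNNGAA in 13.7% against 6.57%. Windows of alternative starts of 1 gene can share bases, and a match is a description of letters only.

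Genes that control the immunoproteasome gave no common direction between the lines. Of 8 tested genes of a list of interferon signalling and MHC neighbours, 4 were called higher and 1 lower in LM3, beside 32.3% and 26.4% of all genes. TAP1, the peptide transporter gene that shares a promoter region with PSMB9, was at 12.6 (si-FENDRR) and 13.4 (si-NC) FPKM in LM3, against 12.6 (si-FENDRR) and 14.3 (si-NC) FPKM in RBE (-0.04 ± 0.12 SE, adjusted p = 0.77). TAP2 was at 12.4 (si-FENDRR) and 9.44 (si-NC) FPKM in LM3, against 3.63 (si-FENDRR) and 3.33 (si-NC) FPKM in RBE (1.40 ± 0.14 SE, adjusted p = 0.00383). TAP1 thus overlapped between the lines while its partner did not. NLRC5, the activator of MHC class I genes, was at 4.93 (si-FENDRR) and 5.26 (si-NC) FPKM in LM3, against 1.79 (si-FENDRR) and 2.83 (si-NC) FPKM in RBE (0.90 ± 0.16 SE, adjusted p = 0.0141). IFNGR1, an interferon gamma receptor chain, was at 68.1 (si-FENDRR) and 61.1 (si-NC) FPKM in LM3, against 16.4 (si-FENDRR) and 13.9 (si-NC) FPKM in RBE (2.03 ± 0.11 SE, adjusted p = 0.0014). IRF1 was not called (-0.17 ± 0.14 SE, adjusted p = 0.351).

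The 19S cap went both ways. The name rule finds 17 of its subunits. In LM3, 3 were called higher (17.6%, beside 32.3% of all genes) and 7 lower (41.2%, beside 26.4%). The share called in either direction was 58.8%, beside 58.7% of all genes. The median log2 difference of the 17 was -0.34, beside 0.09 over all genes. Within the ATPase ring, which contains 1 copy of each of 6 subunits, PSMC2 and PSMC5 lay on opposite sides. PSMC2 (ENSG00000161057, chromosome 7, 103344254 to 103369395, plus strand) was at 112 (si-FENDRR) and 105 (si-NC) FPKM in LM3, against 47.2 (si-FENDRR) and 43.1 (si-NC) FPKM in RBE (log2 difference 1.25 ± 0.10 SE, n = 2 libraries per line, adjusted p = 0.00284 by limma). PSMC5 (ENSG00000087191, chromosome 17, 63827152 to 63832026, plus strand) was at 50.2 (si-FENDRR) and 35.1 (si-NC) FPKM in LM3, against 95.1 (si-FENDRR) and 105 (si-NC) FPKM in RBE (log2 difference -1.23 ± 0.19 SE, n = 2 libraries per line, adjusted p = 0.0105 by limma), with its 2 LM3 libraries further apart than those of RBE. PSMC5 was not called in the 3-library fit without RBE si-FENDRR (-1.303) or RBE si-NC (-1.16), with adjusted p up to 0.0975. The ratio of PSMC2 to PSMC5 was 2.23 (si-FENDRR) and 2.99 (si-NC) in LM3, against 0.496 (si-FENDRR) and 0.410 (si-NC) in RBE. PSMC1 was called lower in LM3 (-0.61 ± 0.13 SE, adjusted p = 0.0228). PSMC1 was not called in the 3-library fit without LM3 si-FENDRR (-0.43), RBE si-FENDRR (-0.66) or RBE si-NC (-0.57), with adjusted p up to 0.182. The summed FPKM of its 13 pseudogene copies reached 21.0% of its own level in LM3 with si-FENDRR, so its value may include reads of such copies. PSMC4 was nearly level, at 79.2 (si-FENDRR) and 76.97 (si-NC) FPKM in LM3, against 79.3 (si-FENDRR) and 79.1 (si-NC) FPKM in RBE (log2 difference -0.02 ± 0.10 SE, n = 2 libraries per line, adjusted p = 0.87 by limma), with a difference of 0.010 when scaled by library totals, and PSMC3 and PSMC6 did not pass.

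Among the 11 non-ATPase subunits, 5 were called lower (45.5%, beside 26.4% of all genes) and 2 higher in LM3 (18.2%, beside 32.3%). PSMD14, the deubiquitinase that removes ubiquitin chains at the cap, was at 36.9 (si-FENDRR) and 35.7 (si-NC) FPKM in LM3, against 61.6 (si-FENDRR) and 60.7 (si-NC) FPKM in RBE (log2 difference -0.74 ± 0.11 SE, n = 2 libraries per line, adjusted p = 0.00859 by limma). The scaffold subunits PSMD1 and PSMD2 were called lower (-0.64 ± 0.11 SE, adjusted p = 0.0133 for PSMD1, and -0.65 ± 0.12 SE, adjusted p = 0.0142 for PSMD2), as were the lid subunits PSMD3 and PSMD7 (-0.64 ± 0.10 SE, adjusted p = 0.0113 for PSMD3, and -0.44 ± 0.12 SE, adjusted p = 0.0398 for PSMD7). For PSMD3, the call was missed in the 3-library fit without RBE si-FENDRR (-0.60), with adjusted p up to 0.0502. For PSMD2, the call was missed in the 3-library fit without LM3 si-FENDRR (-0.71), LM3 si-NC (-0.59) or RBE si-FENDRR (-0.49), with adjusted p up to 0.126. For PSMD7, the call was missed in the 3-library fit without LM3 si-FENDRR (-0.49), LM3 si-NC (-0.40), RBE si-FENDRR (-0.29) or RBE si-NC (-0.59), and with library totals, no filter on low values or no prior trend, with adjusted p up to 0.201. PSMD8, another lid subunit, was at 152 (si-FENDRR) and 130 (si-NC) FPKM in LM3, against 88.1 (si-FENDRR) and 81.3 (si-NC) FPKM in RBE (log2 difference 0.73 ± 0.11 SE, n = 2 libraries per line, adjusted p = 0.00865 by limma). PSMD4, which binds ubiquitin chains, was at 171 (si-FENDRR) and 176 (si-NC) FPKM in LM3, against 123 (si-FENDRR) and 113 (si-NC) FPKM in RBE (log2 difference 0.55 ± 0.11 SE, n = 2 libraries per line, adjusted p = 0.0182 by limma). For PSMD8, the call was missed in the 3-library fit without RBE si-FENDRR (0.78) or RBE si-NC (0.67), with adjusted p up to 0.0808. For PSMD4, the call was missed in the 3-library fit without LM3 si-NC (0.53) or RBE si-NC (0.49), with adjusted p up to 0.0548. PSMD6, PSMD11, PSMD12 and PSMD13 did not pass. The summed 19S FPKM was 1008 (si-FENDRR) and 959 (si-NC) in LM3, against 1053 (si-FENDRR) and 1000.4 (si-NC) in RBE. These sums, and the ratio made from them, leave out 19S subunits outside the name rule, such as SEM1. The ratio of summed 19S to summed 20S FPKM was 0.831 (si-FENDRR) and 0.795 (si-NC) in LM3, against 0.554 (si-FENDRR) and 0.538 (si-NC) in RBE.

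Of the activators, PSME1 was lower in LM3 and its partner was not called. PSME1, the alpha chain of the interferon-inducible 11S ring, was at 41.6 (si-FENDRR) and 43.8 (si-NC) FPKM in LM3, against 69.2 (si-FENDRR) and 77.4 (si-NC) FPKM in RBE (log2 difference -0.76 ± 0.11 SE, n = 2 libraries per line, adjusted p = 0.00809 by limma). PSME2, the beta chain, was at 29.9 (si-FENDRR) and 32.3 (si-NC) FPKM in LM3, against 30.04 (si-FENDRR) and 27.2 (si-NC) FPKM in RBE (log2 difference 0.12 ± 0.13 SE, n = 2 libraries per line, adjusted p = 0.458 by limma). The ratio of PSME1 to PSME2 was 1.39 (si-FENDRR) and 1.36 (si-NC) in LM3, against 2.30 (si-FENDRR) and 2.85 (si-NC) in RBE. PSME3, the nuclear 11S activator, and PSME4, the nuclear activator PA200, did not pass (-0.46 ± 0.19 SE, adjusted p = 0.107 for PSME3, and -0.13 ± 0.16 SE, adjusted p = 0.498 for PSME4). PSMF1 (ENSG00000125818, chromosome 20, 1113263 to 1189415, plus strand), which encodes the proteasome-binding regulator PI31, was among the members with the largest differences. It was at 16.3 (si-FENDRR) and 16.2 (si-NC) FPKM in LM3, against 46.1 (si-FENDRR) and 48.5 (si-NC) FPKM in RBE (log2 difference -1.49 ± 0.11 SE, n = 2 libraries per line, adjusted p = 0.00235 by limma), 2.91-fold higher in RBE in mean FPKM, with close agreement between the libraries of each line.

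Assembly chaperones had a positive median between the lines, and their share of higher calls was close to that of all genes. The median log2 difference of the 7 genes was 0.30, beside -0.66 for the 14 tested constitutive 20S subunits, and 2 of the 7 were called higher (28.6%, beside 32.3% of all genes) and 0 lower in LM3 (beside 26.4%). PSMG1, which forms a dimer with PSMG2 that starts the alpha ring, was at 35.6 (si-FENDRR) and 36.9 (si-NC) FPKM in LM3, against 22.3 (si-FENDRR) and 22.1 (si-NC) FPKM in RBE (log2 difference 0.68 ± 0.11 SE, n = 2 libraries per line, adjusted p = 0.0112 by limma), and PSMG2 was not called (0.18 ± 0.11 SE, adjusted p = 0.217). PSMG3, which pairs with PSMG4, was at 32.2 (si-FENDRR) and 41.6 (si-NC) FPKM in LM3, against 22.3 (si-FENDRR) and 24.99 (si-NC) FPKM in RBE (log2 difference 0.61 ± 0.12 SE, n = 2 libraries per line, adjusted p = 0.0179 by limma). PSMG3 was not called in the 3-library fit without LM3 si-NC (0.43), RBE si-FENDRR (0.53) or RBE si-NC (0.69), with adjusted p up to 0.186. PSMG4 was at 11.4 (si-FENDRR) and 13.9 (si-NC) FPKM in LM3, against 17.1 (si-FENDRR) and 14.9 (si-NC) FPKM in RBE (log2 difference -0.32 ± 0.16 SE, n = 2 libraries per line, adjusted p = 0.166 by limma). The chaperones of the 19S base are PSMD5, PSMD9 and PSMD10. PSMD10, also called gankyrin and known as an oncoprotein of hepatocellular carcinoma, was at 33.8 (si-FENDRR) and 35.98 (si-NC) FPKM in LM3, against 20.9 (si-FENDRR) and 29.9 (si-NC) FPKM in RBE, which did not pass (log2 difference 0.46 ± 0.15 SE, n = 2 libraries per line, adjusted p = 0.0617 by limma). PSMD5 and PSMD9 did not pass either, at -0.32 ± 0.11 SE, adjusted p = 0.0783 for PSMD5, and 0.30 ± 0.11 SE, adjusted p = 0.0875 for PSMD9.

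Proteasome genes named outside the PSM series also split between the lines. Of 12 tested genes of such a list, 2 were called higher and 4 lower in LM3, beside 32.3% and 26.4% of all genes. POMP, the maturation factor of the 20S core, was at 17.4 (si-FENDRR) and 19.97 (si-NC) FPKM in LM3, against 72.9 (si-FENDRR) and 84.9 (si-NC) FPKM in RBE (log2 difference -2.02 ± 0.11 SE, n = 2 libraries per line, adjusted p = 0.00135 by limma). USP14, a deubiquitinase bound to the cap, was at 29.6 (si-FENDRR) and 26.8 (si-NC) FPKM in LM3, against 58.3 (si-FENDRR) and 60.2 (si-NC) FPKM in RBE (-1.05 ± 0.12 SE, adjusted p = 0.00494). SEM1, the smallest 19S subunit, was at 84.5 (si-FENDRR) and 79.5 (si-NC) FPKM in LM3, against 33.3 (si-FENDRR) and 39.1 (si-NC) FPKM in RBE (1.16 ± 0.13 SE, adjusted p = 0.00506). POMP and USP14 thus shared the direction of the core, and SEM1 had the opposite one. Genes of the NRF1 pathway, through which cells induce proteasome genes when proteasome activity falls, were called higher in LM3 in 4 of 8 cases and lower in 0, beside 32.3% and 26.4% of all genes. MAFG, a small Maf partner of NRF1 and NRF2, was at 55.1 (si-FENDRR) and 51.5 (si-NC) FPKM in LM3, against 12.5 (si-FENDRR) and 11.4 (si-NC) FPKM in RBE (2.07 ± 0.11 SE, adjusted p = 0.00135), while NFE2L1, which encodes NRF1, was not called (0.55 ± 0.20 SE, adjusted p = 0.0835). Of 9 genes of p97 and the ubiquitin shuttles, 3 were called higher, near the 32.3% of all genes, and 1 lower, beside 26.4% of all genes. VCP, which encodes p97, was at 95.5 (si-FENDRR) and 105 (si-NC) FPKM in LM3, against 56.03 (si-FENDRR) and 54.7 (si-NC) FPKM in RBE (0.84 ± 0.11 SE, adjusted p = 0.00712). Of 6 genes of ubiquitin and its activation, 2 were called in each direction, beside 32.3% of all genes called higher and 26.4% called lower in LM3. RPS27A, which encodes ubiquitin fused to a ribosomal protein, was at 330 (si-FENDRR) and 346 (si-NC) FPKM in LM3, against 644 (si-FENDRR) and 690.2 (si-NC) FPKM in RBE, lower in LM3 (-0.98 ± 0.10 SE, adjusted p = 0.00375).

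Between the transfections, differences of the members were small. Over both lines 0 of 46 tested members were called by limma (0.0% of the 15930 genes tested were), the smallest adjusted p of a member was 0.959, and 0 members had an unadjusted p under 0.05, as 4.12% of all genes did. A p that misses the threshold does not show that levels were equal. Within LM3, 0 members differed at least 2-fold in FPKM + 1, beside 2.13% of all genes (1.19% higher and 0.942% lower with si-FENDRR). Within RBE, 0 did, beside 1.75% of all genes (0.879% higher and 0.873% lower). At 1.5-fold, 1 member was higher and 1 lower in LM3, beside 7.97% of all genes (4.49% higher and 3.47% lower), and 0 differed in RBE, beside 6.27% (3.18% higher and 3.09% lower). The median log2 difference of the members was -0.02 in LM3 and 0.02 in RBE, beside 0 and 0.02 over all genes. The median size of the difference was 0.09 in LM3 and 0.11 in RBE, beside 0.14 and 0.12 in the 5678 genes whose mean FPKM lay in the range of the members, 10.7 to 327. Of the 46, 13 had a positive difference in each line, 9 a negative one in each and 24 opposite signs, beside 26.9%, 21.8% and 47.1% of all genes.

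**Figure D4:**
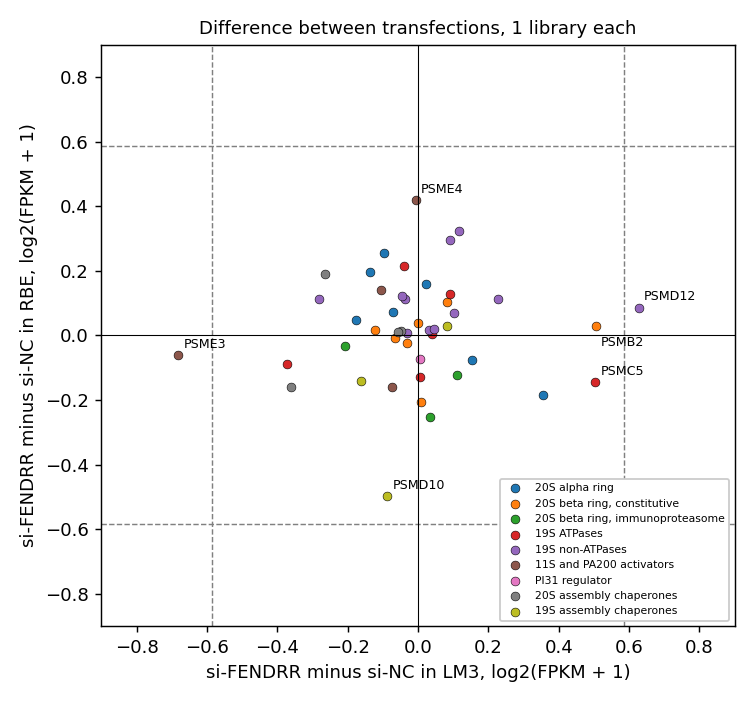
si-FENDRR minus si-NC log2 difference in LM3 (x) and in RBE (y), 1 point per tested member coloured by subunit group, with dashed lines at 1.5-fold. Points gather around 0, and PSME3 at -0.68 and PSMD12 at 0.63, both along the LM3 axis, are the only members past a dashed line.

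The 2 members past 1.5-fold in LM3 had small differences in RBE. PSME3 (ENSG00000131467, chromosome 17, 42824385 to 42843758, plus strand) was at 30.8 (si-FENDRR) and 50.0 (si-NC) FPKM in LM3, and at 53.2 (si-FENDRR) and 55.6 (si-NC) FPKM in RBE. The LM3 si-FENDRR library was the lowest of the 4, and the log2 differences were -0.68 in LM3 and -0.06 in RBE. BECN1, whose exons overlap those of PSME3 on the other strand, was at 17.5 (si-FENDRR) and 19.7 (si-NC) FPKM in LM3. PSMD12 (ENSG00000197170, chromosome 17, 67337916 to 67366627, minus strand) was at 20.5 (si-FENDRR) and 12.9 (si-NC) FPKM in LM3, and at 11.2 (si-FENDRR) and 10.5 (si-NC) FPKM in RBE. Its LM3 si-FENDRR library was the highest of the 4, and the differences were 0.63 in LM3 and 0.09 in RBE. Next in size in LM3 were PSMB2 and PSMC5, with differences of 0.51 in LM3 and 0.03 in RBE for PSMB2, and 0.50 in LM3 and -0.14 in RBE for PSMC5. In RBE the largest differences were in PSMD10, at 20.9 (si-FENDRR) and 29.9 (si-NC) FPKM (-0.09 in LM3 and -0.50 in RBE), and in PSME4, at 16.4 (si-FENDRR) and 12.0 (si-NC) FPKM (-0.01 in LM3 and 0.42 in RBE).

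By group, the within-line medians lay between -0.16 and 0.11. The 20S assembly chaperones had medians of -0.16 in LM3, where the 4 differences lay between -0.36 and -0.05, and 0.01 in RBE. The 19S assembly chaperones had -0.09 and -0.14, and the activators -0.09 and 0.04. The median size of the difference over all genes was 0.15 in LM3 and 0.14 in RBE. The constitutive beta ring had medians of -0.00087 in LM3 and 0.02 in RBE, and the alpha ring -0.07 and 0.07. The 19S non-ATPases had medians of 0.05 and 0.11. Of these 11 genes, 7 had a positive difference in each line, beside 26.9% of all genes. A negative difference in each line was found in 0, beside 21.8% of all genes. These sign counts were not tested, and 0 of the 11 genes were called between the transfections over both lines. PSMD2 had the largest RBE difference of them, at 58.4 (si-FENDRR) and 53.8 (si-NC) FPKM in LM3, and at 99.1 (si-FENDRR) and 79.1 (si-NC) FPKM in RBE. The 3 immunoproteasome genes had medians of 0.03 in LM3 and -0.12 in RBE, where the 3 differences lay between -0.25 and -0.03.

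Some genes around the proteasome differed more between the transfections than its subunits. Those named here were picked as the largest differences of their lists, with 1 library per group. At 2-fold, 2 of 8 genes listed for the NRF1 pathway differed in LM3 and 0 in RBE, beside 2.13% and 1.75% of all genes. The 2 were MAFF and NFE2L2, the gene of NRF2. NFE2L1, which encodes NRF1, stayed below 2-fold, with a log2 difference of 0.70 in LM3. Of 12 proteasome genes named outside the PSM series, 1 differed at 2-fold in each line. Of 9 genes of p97 and the ubiquitin shuttles, 0 differed at 1.5-fold in either line, beside 7.97% of all genes in LM3 and 6.27% in RBE. In LM3, MAFF was at 20.6 (si-FENDRR) and 3.58 (si-NC) FPKM, NFE2L2 at 45.5 (si-FENDRR) and 21.5 (si-NC), and NFE2L1 at 49.9 (si-FENDRR) and 30.3 (si-NC). PAAF1, which binds ATPases of the cap, was at 8.17 (si-FENDRR) and 3.56 (si-NC) FPKM in LM3. In RBE the log2 differences of these 4 genes lay between -0.34 and 0.04. TXNL1, a thioredoxin-like protein bound to the cap, was at 51.7 (si-FENDRR) and 11.7 (si-NC) FPKM in RBE, with a log2 difference of 2.05, and had a log2 difference of -0.13 in LM3. The deubiquitinase gene UCHL5 was at 15.3 (si-FENDRR) and 9.35 (si-NC) FPKM in RBE, and at 18.0 (si-FENDRR) and 21.1 (si-NC) FPKM in LM3. None of the genes named here was called between the transfections over both lines. The smallest adjusted p by limma in each of the lists that hold them was 0.959.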

How the data were processed

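The deposited values are FPKM in 1 series table, per the file headers, and the single-library files hold the same values. The submitters' processing notes name FastQC, HISAT2 and hg38. None of the sources used here gives the program that estimated FPKM, its annotation or the strand setting. Low values did not step in whole reads (11.4% to 15.9% lay within 0.02 of a multiple), so depth is unknown and no counting interval is given.

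Values were tested as log2(FPKM + 1) with limma version 3.58.1 in R version 4.3.3, with trended prior variance, terms for line and transfection, and Benjamini-Hochberg adjustment over 15930 genes, those that reached 1 FPKM in 1 or more libraries. The lines serve as the replicates of a transfection, which leaves 1 residual degree of freedom; the labels name no separate cultures, so p-values measure the spread between these libraries. A difference on this scale understates changes of low genes. Exon overlaps come from GENCODE release 29, which holds 57836 of the table's gene identifiers. Some genes of the companion lists enter the counts but are not reported here by name. Members, gene lists and the rule for named genes (active-site, activator and chaperone genes, members past 1.5-fold, and the extremes of each group) were chosen with earlier results of these data known; members outside that rule were chosen after their values were seen. Alternatives covered scaling, pseudocount, filter, prior trend, model terms and single libraries left out.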

Additional observations from a re-analysis of the deposited data

How the results depend on the processing

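The labels give no replicate numbers. The line term already sets each si-FENDRR library against the si-NC library of its own line, and without it 0 members were called too. In all 8 alternatives run for it, the number of members called between the transfections stayed at 0. With 1 library left out, which also removed the transfection term and left 1 library against 2, the members called higher in LM3 numbered 4 to 6 and those called lower 10 to 16, beside 7 and 18 with all libraries. With no transfection term or with median-of-ratios scaling 22 were called lower. These counts describe the members only, without the share of all genes called under the same setting. Among the 23 tested members without an exon overlap on either strand, 5 were called higher and 9 lower, beside 32.3% and 26.4% of all genes tested. This restriction was chosen after seeing the data, and its counts come from fewer genes by construction. At 1.5-fold, 2 members differed in LM3, against 0 at 2-fold. The line term within 1 transfection gives no test.

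The medians moved with the scaling. With library totals and with median-of-ratios scaling, the median of the members between transfections was -0.059 and -0.054 in LM3, and 0.055 and -0.014 in RBE. Between the lines, all members had -0.41 with median of ratios and -0.22 within si-NC. The 20S core had -0.64 with library totals, -0.76 with median of ratios, -0.62 with a pseudocount of 5, -0.85 without members that share exons, -0.60 within si-FENDRR and -0.63 within si-NC. The 19S cap had -0.31 with library totals, -0.44 with median of ratios, -0.32 with a pseudocount of 5 and -0.31 within si-FENDRR. Assembly chaperones had 0.34 with library totals, 0.21 with median of ratios, 0.25 with a pseudocount of 5, 0.32 without members that share exons and 0.26 within si-NC. The median of all genes between the lines was 0.13 with library totals and 0.01 with median of ratios. Directions of single members turned in 3 cases, none of them called: PSMC4 (0.010 with library totals), PSMA2 (0.032 without the RBE si-FENDRR library) and PSME4 (0.075 without the RBE si-FENDRR library and -0.34 without RBE si-NC). The cause was not tested. The other directions of the 46 members held under the 12 alternatives.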

Other observations

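A further list holds peptidases that trim or destroy proteasome products. Of 6 genes, 4 were called lower and 1 higher in LM3 than in RBE by limma, beside 26.4% and 32.3% of all genes, with a median log2 difference of -0.53, beside 0.09 over all genes. The cytosolic aminopeptidase LAP3 was at 14.4 (si-FENDRR) and 16.1 (si-NC) FPKM in LM3, against 32.6 (si-FENDRR) and 31.9 (si-NC) FPKM in RBE (log2 difference -1.03 ± 0.12 SE, n = 2 libraries per line, adjusted p = 0.00537 by limma), and NPEPPS was also called lower in LM3 (-0.68 ± 0.13 SE, adjusted p = 0.017). ERAP2, an aminopeptidase that trims MHC class I peptides in the endoplasmic reticulum, was at 5.69 (si-FENDRR) and 4.89 (si-NC) FPKM in LM3, against 1.12 (si-FENDRR) and 0.834 (si-NC) FPKM in RBE (log2 difference 1.67 ± 0.13 SE, n = 2 libraries per line, adjusted p = 0.00252 by limma), and its relative ERAP1 was called lower (-0.50 ± 0.13 SE, adjusted p = 0.0338). THOP1, an oligopeptidase of the cytosol, was at 25.2 (si-FENDRR) and 12.8 (si-NC) FPKM in LM3, against 18.5 (si-FENDRR) and 18.1 (si-NC) FPKM in RBE, with no call in either contrast.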
